A study of Homo sapiens with 6 samples.

Results

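Ligands, a receptor, secreted inhibitors and target genes of the Wnt pathway were followed in U87MG cells with and without added LMO2, an adaptor protein with LIM domains. The 10 genes were taken by symbol from a list drawn up with earlier results of these data known: WNT5A, WNT5B, FZD7, DKK1, DKK3, SFRP1, NKD1, TCF7, LEF1 and AXIN2, of 27259 genes in the table of the study's comparison. 9 of them had a line in the tables, and SFRP1, a secreted inhibitor, was not analysed here. U87MG is an established human glioblastoma line, and per the labels all 6 cultures were grown in DMEM with fetal bovine serum and antibiotics. In U87MG-control, 3 libraries came from cells given a control lentivirus for 24 h, and in U87MG-LMO2, 3 libraries came from cells given an LMO2 lentivirus for 24 h. The labels name no batch and do not say that the libraries of a group came from separate cultures, so the p-values measure only the spread between these libraries, which may be technical.

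Wnt proteins are secreted lipid-modified ligands that bind Frizzled receptors at the cell surface. In the canonical branch, with an LRP co-receptor, they stop the Axin, APC and GSK3 complex from marking β-catenin for destruction, and β-catenin then works with TCF and LEF factors in the nucleus to switch on targets such as AXIN2, many of which feed back on the pathway. WNT5A and WNT5B are best known for branches that do not need β-catenin and that act on cell movement and polarity, and WNT5A has been linked to invasion in glioma. In other tumour cells LMO2 has been described as a partner of Dishevelled, the protein that relays the signal from Frizzled, which is the question behind looking at the pathway here.

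The U87MG-control libraries held 11428432 to 13537284 expected counts and the U87MG-LMO2 libraries 14630627 to 17892955, so every U87MG-LMO2 library was deeper. LMO2 itself had 7, 11 and 5 counts in U87MG-control and 5459, 4503 and 14570 in U87MG-LMO2, and the counts do not separate the vector's transcript from that of the cells' own gene. Of the glioma and astroglial markers, VIM (5122 to 5642 FPKM over the 6 libraries) and CD44 (451 to 606 FPKM) were high, while SOX2 did not exceed 0.09 FPKM and GFAP did not exceed 0.26 FPKM in the 5 libraries with a readable value. NES lay between 6.64 and 8.71 FPKM and OLIG2 between 0.16 and 0.42 FPKM, and S100B did not exceed 0.06 FPKM. Of the immune markers, PTPRC lay between 0.24 and 0.38 FPKM and CD68 between 157 and 283 FPKM, and AIF1 had no line. Of the endothelial markers, CDH5 did not exceed 0.02 FPKM and VWF 0.2 FPKM, and PECAM1 lay between 0.72 and 1.08 FPKM. Of the epithelial markers, EPCAM did not exceed 0.27 FPKM, CDH1 lay between 0.42 and 0.6 FPKM and KRT5 had no line. Among the neuronal markers, SNAP25 lay between 12.1 and 15.6 FPKM, while RBFOX3 did not exceed 0.21 FPKM and SYT1 did not exceed 0.45 FPKM. FPKM is a level scaled to transcript length and library size, which can be compared between genes.

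Promoters are shown for WNT5A, WNT5B and TCF7, the 3 members that rose and are in the RefSeq promoter table. They stand beside those of DKK1 and SP5, which hold CTTTGAT or CTTTGAA, forms of the letters that TCF and LEF proteins bind. Of the 9 members with a line, 5 matched that table (WNT5A, WNT5B, DKK1, TCF7 and LEF1), and FZD7, DKK3, AXIN2 and NKD1 did not. Each sequence covers the 250 bases before the first listed start site of the gene, 5′ to 3′ on the gene's strand, with coordinates of GRCh38.p14: WNT5A at chr3:55487307-55487556 (minus strand), WNT5B at chr12:1616806-1617055 (plus), TCF7 at chr5:134115363-134115612 (plus), DKK1 at chr10:52314031-52314280 (plus) and SP5 at chr2:170715087-170715336 (plus). Capitals mark CTTTGAT or CTTTGAA, searched on both strands, so that TTCAAAG is CTTTGAA read on the other strand.
WNT5A promoter: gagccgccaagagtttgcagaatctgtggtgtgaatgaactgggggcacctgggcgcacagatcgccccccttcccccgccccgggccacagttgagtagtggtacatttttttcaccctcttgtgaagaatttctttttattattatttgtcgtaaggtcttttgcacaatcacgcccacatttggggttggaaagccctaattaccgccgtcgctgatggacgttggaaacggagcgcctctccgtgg
WNT5B promoter: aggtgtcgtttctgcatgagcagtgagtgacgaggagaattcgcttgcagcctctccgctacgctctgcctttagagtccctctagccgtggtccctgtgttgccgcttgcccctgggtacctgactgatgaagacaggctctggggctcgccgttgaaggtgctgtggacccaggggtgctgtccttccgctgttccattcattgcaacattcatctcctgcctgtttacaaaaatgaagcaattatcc
TCF7 promoter: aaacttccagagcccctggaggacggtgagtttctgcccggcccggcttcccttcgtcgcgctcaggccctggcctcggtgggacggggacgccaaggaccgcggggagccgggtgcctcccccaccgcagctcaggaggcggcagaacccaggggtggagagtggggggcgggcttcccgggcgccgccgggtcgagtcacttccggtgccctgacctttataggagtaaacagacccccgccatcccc
DKK1 promoter: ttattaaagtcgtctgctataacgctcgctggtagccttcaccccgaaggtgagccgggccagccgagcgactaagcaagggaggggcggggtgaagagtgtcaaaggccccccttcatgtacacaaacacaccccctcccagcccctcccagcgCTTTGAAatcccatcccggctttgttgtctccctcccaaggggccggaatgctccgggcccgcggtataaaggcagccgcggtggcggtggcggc
SP5 promoter: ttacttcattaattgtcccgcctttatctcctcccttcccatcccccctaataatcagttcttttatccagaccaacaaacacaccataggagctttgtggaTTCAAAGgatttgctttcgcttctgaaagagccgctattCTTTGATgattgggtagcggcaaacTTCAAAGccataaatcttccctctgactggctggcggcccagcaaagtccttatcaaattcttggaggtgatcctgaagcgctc

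DKK1 held 1 match, whose first base lay 95 bases before the start site, and SP5, a zinc finger gene that responds directly to Wnt, held 3 matches, whose first bases lay 148, 109 and 84 bases before the start site. The 8 windows of the 5 matched members held a searched form once, in DKK1, and none of the windows of WNT5A, WNT5B, TCF7 and LEF1 held one. Other forms of the letters were not searched in any window. Of all 35116 windows in the table, 5.94% held at least 1 match. Neither DKK1 nor SP5 was called between the groups, and the values of both are given below. The other gene of the wider list with a match, TLE4, held 1 in the second of its windows and was called higher. A match in these letters is a description of the window and not a site, and a window without one says nothing of the factor.

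In U87MG-LMO2, transcripts of both Wnt ligands, of the receptor FZD7 and of the nuclear factor TCF7 rose, by 1.40 to 3.09 times. The inhibitor DKK1 and the target genes LEF1, AXIN2 and NKD1 were not called in either direction. A gene was called where edgeR's quasi-likelihood test gave a Benjamini-Hochberg adjusted p under 0.05 over 16092 genes. Of the 8 members tested, 4 were called higher and 0 lower, where 7.48% of all genes tested were called, 4.72% higher and 2.75% lower. The median log2 fold change was 0.44 over the 8 tested members and -0.01 over all genes tested. In 5 of the 8 the groups did not overlap, 4 with every U87MG-LMO2 library above and 1 with every one below, against 34.1% of all genes tested without overlap. At an unadjusted p under 0.05, edgeR likewise had 0 of the 8 lower, and DESeq2 called 4 higher and 0 lower, with no adjusted p for NKD1. In bulk libraries, a change in the share of cells that make a transcript and a change in the amount per cell cannot be told apart.

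**Figure D1:**
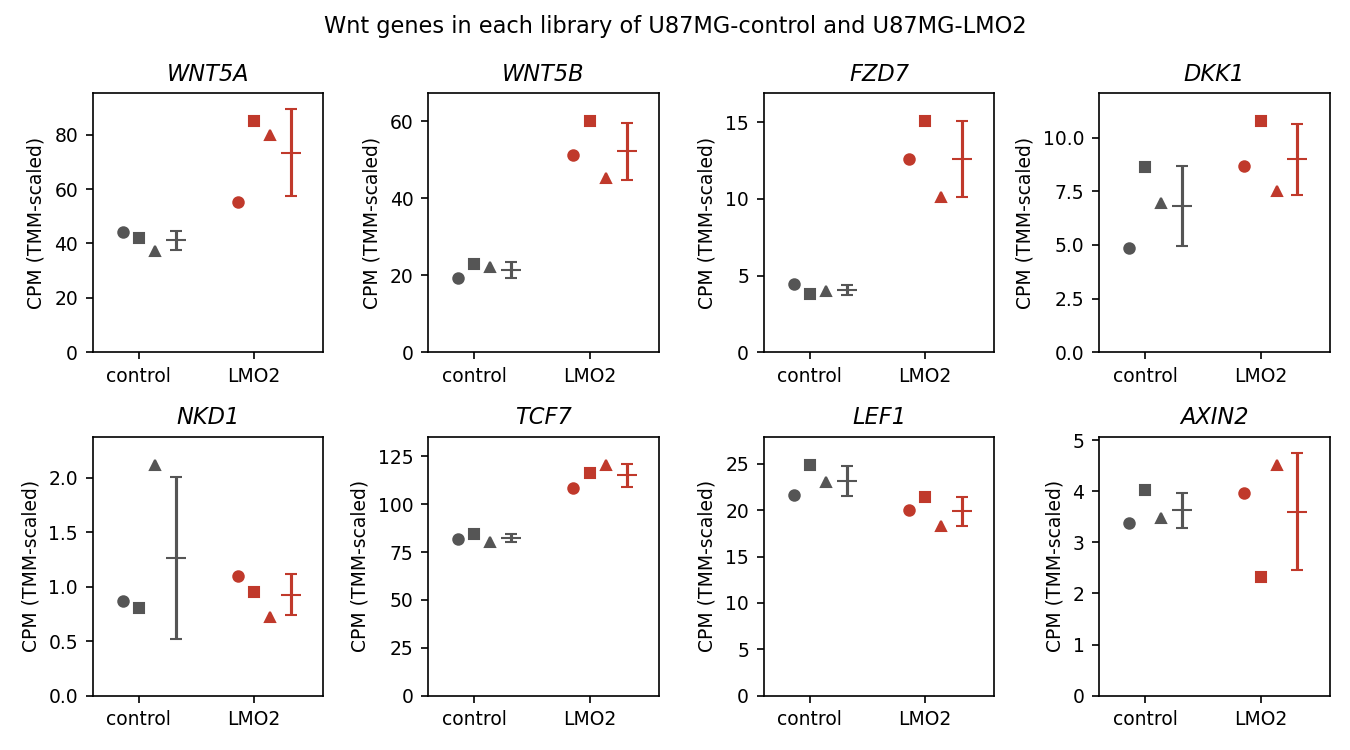
CPM (counts scaled to the TMM library size) of the 8 tested members in each library, with circles, squares and triangles for replicates 1, 2 and 3, and the mean with its SD as a bar beside each group. For WNT5A, WNT5B, FZD7 and TCF7 all 3 U87MG-LMO2 libraries lie above the U87MG-control libraries, for LEF1 they lie below, and for DKK1, NKD1 and AXIN2 the groups overlap.

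The ligand WNT5A (Entrez gene 7474) was measured at 44.2, 41.9 and 37.3 CPM in the 3 U87MG-control libraries and at 55.4, 84.9 and 80.0 CPM in the U87MG-LMO2 libraries. Every U87MG-LMO2 library was above every control, with replicate 1 the nearest to them. The log2 fold change was 0.84 ± 0.16 (SE, n = 3 per group), which is 1.79-fold with a 95% confidence interval of 1.38 to 2.31, and the edgeR adjusted p was 0.0237. Without U87MG-control replicate 1, 2 or 3 the edgeR adjusted p was 0.0870, 0.0945 and 0.108, with log2 fold changes of 0.89, 0.86 and 0.77. With limma on log2(FPKM + 1) it was 0.0758.

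WNT5B (Entrez gene 81029), the close relative of WNT5A, showed the wider separation of these ligands. Its level was 19.2, 22.9 and 22.0 CPM in U87MG-control and 51.3, 60.1 and 45.3 CPM in U87MG-LMO2, and the lowest U87MG-LMO2 library was well above the highest control. The log2 fold change was 1.29 ± 0.14 (SE, n = 3 per group), or 2.44-fold (95% confidence interval 1.97 to 3.03), with an edgeR adjusted p of 0.00344. WNT5B was called under all 14 alternatives tried, with log2 fold changes between 1.11 and 1.38.

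Of the other ligands on a list of 94 genes of the pathway, WNT7B (Entrez gene 7477), which can act through β-catenin, was the most abundant, at 57.8 ± 7.01 FPKM in U87MG-control and 95.6 ± 9.31 FPKM in U87MG-LMO2 (SD, n = 3 each). It had a log2 fold change of 0.76 ± 0.11 (SE, edgeR adjusted p = 0.0109), with 184, 232 and 223 CPM against 357, 385 and 344 CPM. The groups did not overlap, but the call was lost without U87MG-control replicate 3 (adjusted p = 0.0606) and with a correction for GC content (log2 fold change 0.48, adjusted p = 0.0649). In all, 6 of the 19 listed ligands had enough counts for the test. Of these, 3 were called higher and 0 lower, beside 4.72% and 2.75% of all genes tested. Likewise 0 were lower at an unadjusted p under 0.05 and by DESeq2.

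PORCN, the acyltransferase that adds the lipid without which Wnt ligands are not secreted, rose with the ligands, from 8.68, 11.5 and 12.8 CPM to 33.3, 43.1 and 27.8 CPM. No U87MG-LMO2 library came near the controls, and the log2 fold change was 1.66 ± 0.20 (SE, n = 3 per group, edgeR adjusted p = 0.00489), kept past the threshold under all 14 alternatives. WLS, which carries the lipid-modified ligands to the cell surface, stood at 118, 109 and 113 CPM against 111, 113 and 117 CPM. Its log2 fold change was 0.01 ± 0.09 (SE, edgeR adjusted p = 0.948), with a 95% confidence interval from -0.19 to 0.21.

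The receptor FZD7 (Entrez gene 8324), a Frizzled that many stem and tumour cells use, had the largest fold change of the 8 tested members. It was measured at 4.42, 3.80 and 4.01 CPM in U87MG-control and at 12.6, 15.1 and 10.1 CPM in U87MG-LMO2. The controls were close to one another, and each U87MG-LMO2 library was above all of them. The log2 fold change was 1.63 ± 0.19 (SE, n = 3 per group), or 3.09-fold (95% confidence interval 2.29 to 4.17), with an edgeR adjusted p of 0.00430.

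FZD7 shares long stretches of its coding sequence with FZD1 and FZD2. The deposited counts of all 3 were not whole numbers, so that reads were divided between genes and the value of each is uncertain. Those of other genes, among them WNT5A, TCF7, WNT7B, KREMEN1, TLE4, NKD1 and RNF43, were not whole either, and their values carry the same uncertainty. FZD1 rose as well, from 11.8, 19.7 and 17.6 CPM to 44.3, 38.1 and 39.0 CPM (log2 fold change 1.30 ± 0.18, SE, edgeR adjusted p = 0.00819). FZD2 was the most abundant of the 3, at 46.1 ± 3.13 CPM and 62.6 ± 10.7 CPM (SD, n = 3 each), and was not called (log2 fold change 0.44 ± 0.14, SE, edgeR adjusted p = 0.0841), but was without U87MG-LMO2 replicate 2 (0.0483). Summed over the 3 genes, the level was 58.9, 72.4 and 68.3 CPM in U87MG-control and 118, 106 and 123 CPM in U87MG-LMO2, again without overlap. Counted as 1 feature, a choice made after seeing the data, they were called higher (log2 fold change 0.80, edgeR adjusted p = 0.00860). Of the 12 receptors and co-receptors tested, FZD7 and FZD1 were called higher and 0 were called lower, by edgeR and by DESeq2 alike. At an unadjusted p under 0.05, 0 were lower. For comparison, edgeR called 4.72% of all genes tested higher and 2.75% lower.

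Of the inhibitors, DKK1 (Entrez gene 22943), which blocks the LRP co-receptor and is itself a target of the pathway, was measured at 4.86, 8.62 and 6.96 CPM in U87MG-control and at 8.66, 10.8 and 7.53 CPM in U87MG-LMO2. U87MG-LMO2 replicate 3 lay within the range of the controls, and U87MG-control replicate 1 was the lowest of the 6. The log2 fold change was 0.39 ± 0.23 (SE, n = 3 per group, edgeR adjusted p = 0.323), and its 95% confidence interval ran from -0.13 to 0.92. A rise of up to 1.89-fold is therefore within the interval.

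DKK3, a divergent Dickkopf protein whose loss is common in tumours, had 4, 11 and 6 counts in U87MG-control and 5, 10 and 6 counts in U87MG-LMO2, too few for the test. Its level was at most 0.33 FPKM in any library, and a difference between the groups was not detectable at this depth. NKD1 (Entrez gene 85407), which binds Dishevelled and is induced by the pathway that it dampens, had 10.39, 11.33 and 28.34 expected counts against 17.5, 13.88 and 12.27. U87MG-control replicate 3 alone was high, and the log2 fold change of -0.46 ± 0.42 (SE, n = 3 per group, edgeR adjusted p = 0.533) became 0.15 without it.

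NOTUM, a secreted enzyme that removes the lipid from Wnt ligands and so silences them, had 4, 7 and 6 counts in U87MG-control and 67, 44 and 64.87 in U87MG-LMO2. The groups were far apart, with a log2 fold change of 3.03 ± 0.29 (SE, n = 3 per group, edgeR adjusted p = 0.00238), although the level reached only 1.70 ± 0.273 FPKM (SD, n = 3) in U87MG-LMO2. With so few control counts, NOTUM passed the filter on low counts only through the group in which it is high, and the same holds for SFRP4. SFRP4, a secreted decoy receptor, rose from 7, 5 and 4 counts to 19, 15 and 25 (log2 fold change 1.54 ± 0.37, SE, edgeR adjusted p = 0.0417). That call rests on few counts and was lost when any 1 of the 6 libraries was left out, with adjusted p between 0.0561 and 0.169 (0.0831, 0.149 and 0.169 without U87MG-control replicates 1, 2 and 3, and 0.112, 0.0561 and 0.0590 without U87MG-LMO2 replicates 1, 2 and 3). Of the 8 secreted or surface inhibitors tested, 3 were called higher and 0 lower, beside 4.72% and 2.75% of all genes tested. The filter fixes this split in part, and with at least 10 counts in every library 1 of 5 was called. DESeq2 called 2 higher and 0 lower, with no adjusted p for SFRP4. The last of the 3, KREMEN1, a receptor for Dickkopf proteins, was at the threshold (log2 fold change 0.43 ± 0.11, SE, edgeR adjusted p = 0.0496) and was called under 4 of 14 alternatives.

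TCF7 (Entrez gene 6932), a DNA-binding partner of β-catenin and itself a target of the pathway, was the most abundant of the 9 members with a line and had the smallest change of those that rose. It was measured at 81.7, 84.6 and 80.3 CPM in U87MG-control and at 109, 116 and 121 CPM in U87MG-LMO2. Spread within each group was narrow and the groups did not overlap. The log2 fold change was 0.48 ± 0.09 (SE, n = 3 per group), or 1.40-fold (95% confidence interval 1.21 to 1.62), with an edgeR adjusted p of 0.0211. The call was lost with a correction for GC content (log2 fold change 0.32, adjusted p = 0.0713) and with limma on log2(FPKM + 1) (0.0554). It was also lost without U87MG-control replicate 1, 2 or 3 (edgeR adjusted p = 0.0804, 0.0942 and 0.117) and without U87MG-LMO2 replicate 1 (0.0648).

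LEF1 (Entrez gene 51176), the other DNA-binding partner of β-catenin among the 10, went the other way. It was measured at 21.7, 24.9 and 23.0 CPM in U87MG-control and at 20.0, 21.4 and 18.3 CPM in U87MG-LMO2, so that every U87MG-LMO2 library was below every control, by a small margin. The log2 fold change was -0.22 ± 0.12 (SE, n = 3 per group), with a 95% confidence interval from -0.50 to 0.05, and was not called (edgeR adjusted p = 0.282). In RefSeq, TCF7 overlaps VDAC1 (3824 to 4308 counts per library) and LEF1 overlaps its antisense gene LEF1-AS1 (16 to 35 counts per library), and the sources used here do not say that strand was used in counting, so reads in the shared parts cannot be told apart. LEF1 was called under none of the 14 alternatives, in all of which its log2 fold change was negative, between -0.28 and -0.16.

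AXIN2 (Entrez gene 8313), a scaffold of the destruction complex whose transcription is the most widely used readout of β-catenin signalling, had 39, 55 and 46 counts in U87MG-control and 65, 34 and 75 in U87MG-LMO2. Scaled to depth these were 3.38, 4.02 and 3.48 CPM against 3.96, 2.32 and 4.52 CPM. U87MG-LMO2 held both the lowest and the highest library, and the log2 fold change was -0.01 ± 0.26 (SE, n = 3 per group, edgeR adjusted p = 0.990). The 95% confidence interval ran from 0.66-fold to 1.51-fold, so that changes of up to that size in either direction are within the interval.

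Of the other genes used as readouts of β-catenin signalling, SP5, whose promoter with 3 matches is shown above, was measured at 6.42, 8.03 and 5.67 CPM in U87MG-control and at 7.02, 5.45 and 7.65 CPM in U87MG-LMO2 (log2 fold change 0.00 ± 0.20, SE, edgeR adjusted p = 1.000). MYC had a log2 fold change of -0.02 ± 0.15 and CCND1, the gene of cyclin D1, of -0.14 ± 0.09 (SE, edgeR adjusted p = 0.934 and 0.382). RNF43, a ubiquitin ligase that removes Frizzled from the cell surface, was at 3.64, 3.51 and 3.25 CPM against 1.77, 2.11 and 2.23 CPM, without overlap, and was not called (log2 fold change -0.76 ± 0.20, SE, edgeR adjusted p = 0.0572). It was called lower with at least 10 counts in every library (0.0470), with GC correction (0.0412) and without U87MG-LMO2 replicate 3 (0.0411). Of the 14 targets tested, which include the target genes above, 3 were called higher (FZD7, TCF7 and NOTUM) and 0 lower. Over all genes tested, 4.72% were called higher and 2.75% lower, and NOTUM passed the filter on low counts only through U87MG-LMO2. DESeq2 also called 3 higher and 0 lower, and RNF43 was the 1 gene lower at an unadjusted p under 0.05.

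**Figure D2:**
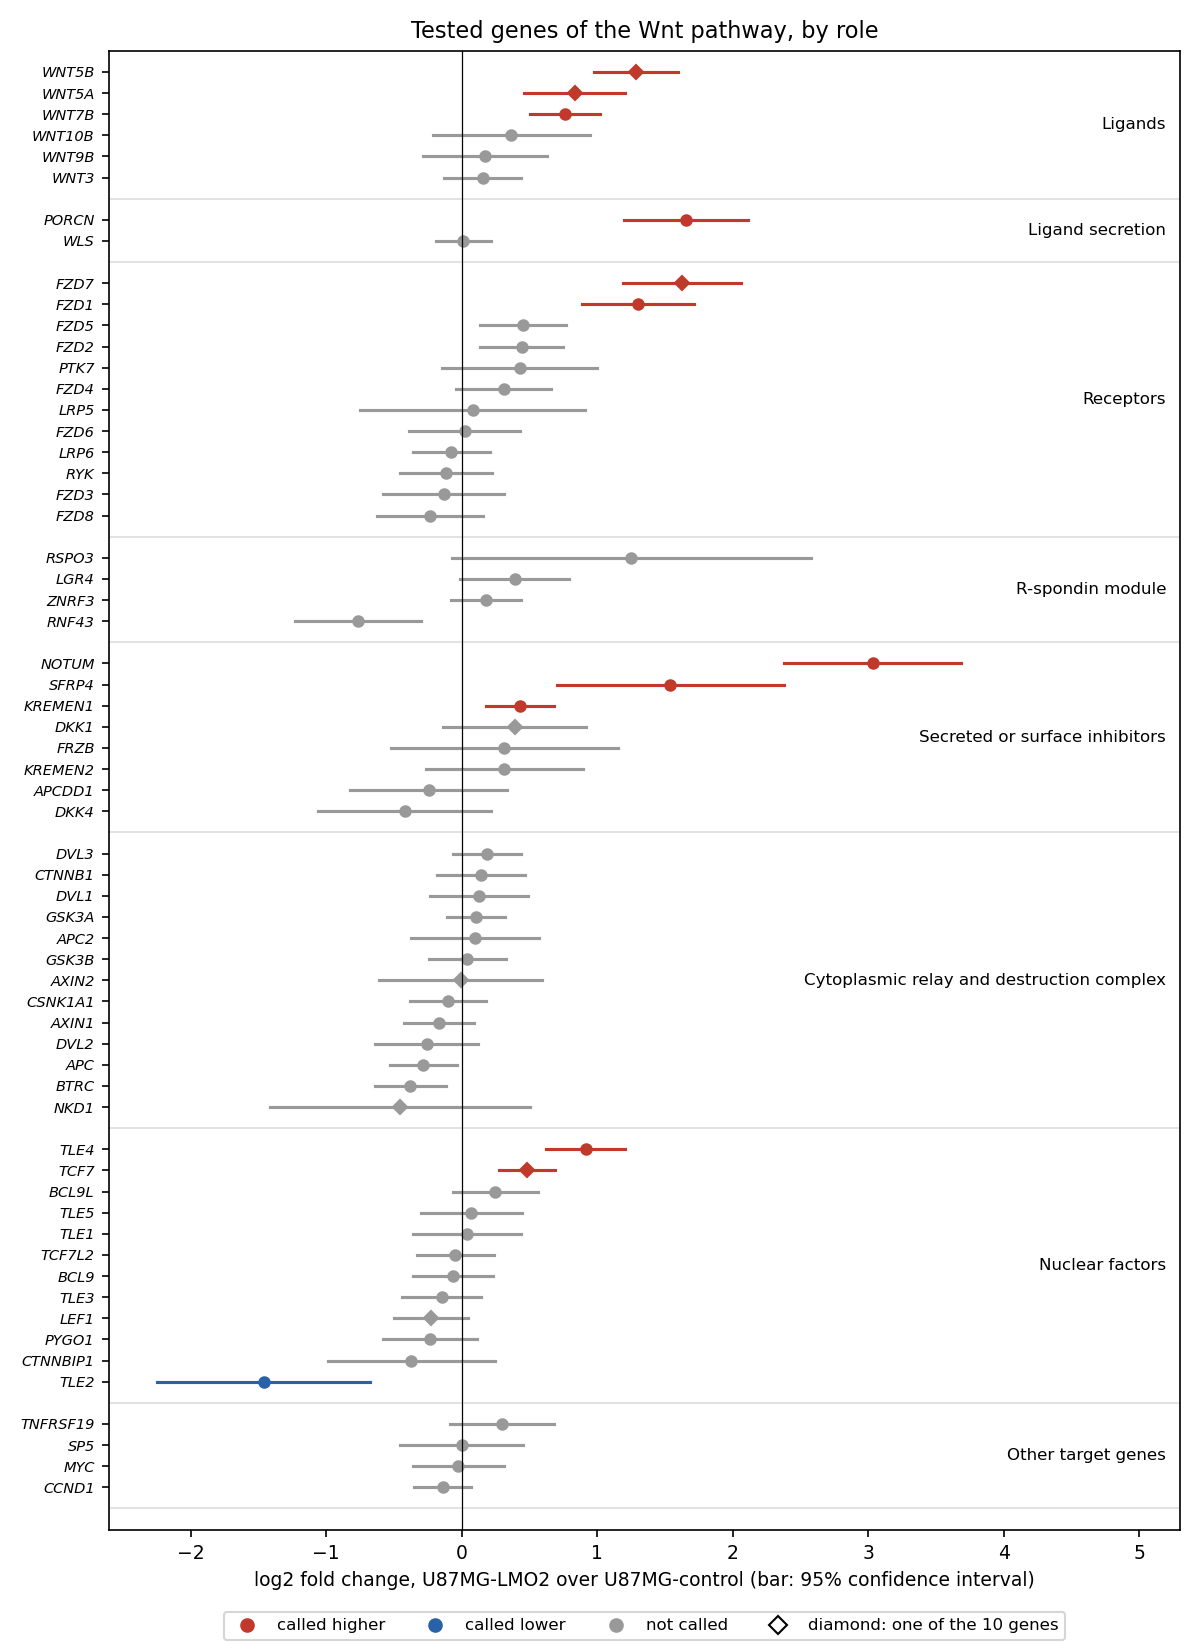
Log2 fold change of U87MG-LMO2 over U87MG-control for the 61 tested genes of the pathway, grouped by role, with bars for the 95% confidence interval, red for genes called higher, blue for lower and grey for not called, and diamonds for the members. The called genes are 11 higher and 1 lower, beside 4.72% and 2.75% of all genes tested. The list was drawn up with earlier results of these data known, and NOTUM and SFRP4 passed the filter on low counts only through U87MG-LMO2.

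Between receptor and nucleus the signal passes through the cytoplasmic relay and destruction complex, which include AXIN2 and NKD1. Of the 13 genes tested there, 0 were called in either direction by edgeR, beside 7.48% of all genes, and 0 by DESeq2, and so few genes cannot show a share below that of all genes. In edgeR, 2 (APC and BTRC, both lower) had an unadjusted p under 0.05. The Dishevelled genes had log2 fold changes of 0.13 ± 0.16 (DVL1), -0.26 ± 0.17 (DVL2) and 0.19 ± 0.11 (DVL3) (SE, edgeR adjusted p = 0.643, 0.369 and 0.318). DVL2 was at 55.8, 55.4 and 55.2 CPM in U87MG-control and at 44.1, 35.9 and 59.1 CPM in U87MG-LMO2. Without U87MG-LMO2 replicate 3 it was called lower (log2 fold change -0.47, edgeR adjusted p = 0.0173). Leaving out that library raised the calls over all genes, from 760 higher and 443 lower to 1307 and 1102. CTNNB1, the gene of β-catenin, was at 85.8 ± 2.03 FPKM and 92.0 ± 14.2 FPKM (SD, n = 3 each, edgeR adjusted p = 0.563), and GSK3B at 13.6 ± 0.218 FPKM and 13.6 ± 1.5 FPKM (adjusted p = 0.859).

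In the nucleus, 12 genes were tested, and TCF7 and TLE4 were called higher and TLE2 lower. Of all genes tested, 4.72% were called higher and 2.75% lower. TLE4 and TLE2 are both Groucho co-repressors, which bind TCF and LEF factors in the absence of β-catenin, and they moved in opposite directions. TLE4, named after its values were seen, rose from 13.9, 13.6 and 14.7 CPM to 23.7, 29.6 and 26.3 CPM (log2 fold change 0.92 ± 0.13, SE, edgeR adjusted p = 0.00813), but was at adjusted p = 0.0529 without U87MG-control replicate 2. TLE2 fell from 29, 41 and 30 counts to 13, 8 and 24 (log2 fold change -1.46 ± 0.35, SE, edgeR adjusted p = 0.0407). The TLE2 call was lost without U87MG-control replicate 1, 2 or 3 (0.128, 0.142 and 0.114) and without U87MG-LMO2 replicate 1 or 2 (0.142 and 0.0720). With 8 counts in U87MG-LMO2 replicate 2, TLE2 was not tested where at least 10 counts were asked of every library.

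Over the whole list, 81 of the 94 genes had a line and 61 were tested. Of these, 11 (18%) were called higher and 1 (1.64%, TLE2) lower. Among the 11, NOTUM and SFRP4 passed the filter on low counts only through U87MG-LMO2. The list was drawn up with earlier results of these data known, so these shares are a description and not a test. The shares over all genes tested were 4.72% higher and 2.75% lower. Leaving out the members, 7 of 53 (13.2%) were called higher and 1 (1.89%) lower, with a median log2 fold change of 0.08. In 20 of the 61 the groups did not overlap, beside the 34.1% of all genes tested.

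In FPKM, which is per length, the order of the mean levels of the 9 members was the same in both groups but for WNT5A and LEF1. In U87MG-control, TCF7 was highest at 32.7 ± 2.06 FPKM, followed by WNT5B at 9.86 ± 0.916, LEF1 at 7.65 ± 1.10 and WNT5A at 6.82 ± 0.608 FPKM (SD, n = 3 each). LEF1 and WNT5A overlapped there. Below them came DKK1 at 3.80 ± 1.06, FZD7 at 1.05 ± 0.0808 and AXIN2 at 0.843 ± 0.0586 FPKM, with DKK3 at 0.210 ± 0.104 and NKD1 at 0.143 ± 0.0839 FPKM overlapping each other.

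In U87MG-LMO2, TCF7 was at 44.2 ± 1.47 FPKM, WNT5B at 23.5 ± 4.18 and WNT5A at 11.7 ± 2.41 FPKM, so that both ligands were above LEF1, at 6.31 ± 0.833 FPKM (SD, n = 3 each), in every library. DKK1 at 4.88 ± 1.06 FPKM overlapped LEF1 above it and FZD7, at 3.20 ± 0.740 FPKM, below it. AXIN2 was at 0.807 ± 0.233, DKK3 at 0.183 ± 0.0839 and NKD1 at 0.103 ± 0.0208 FPKM.

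**Figure D3:**
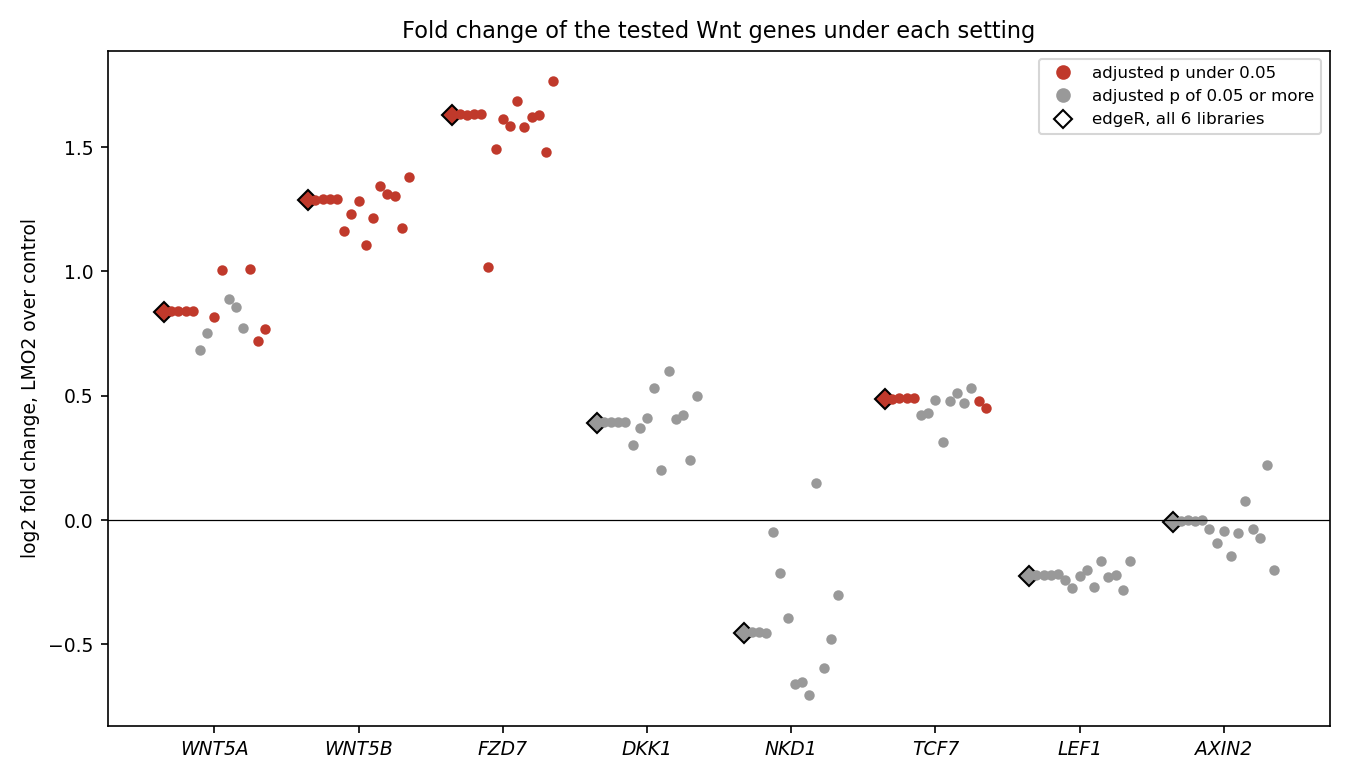
Log2 fold change of U87MG-LMO2 over U87MG-control for the 8 tested members with all 6 libraries (diamonds) and under the 14 alternatives (circles, 13 for NKD1), red where the adjusted p was under 0.05 and grey where it was not. WNT5B and FZD7 are red throughout, WNT5A (9 of 14) and TCF7 (6 of 14) are red in part, and DKK1, NKD1, LEF1 and AXIN2 are grey throughout.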

How the data were processed

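RNA-seq of 6 U87MG libraries was used, in 2 groups of 3 given by the treatment label. The authors deposited, per library, expected counts (estimated reads per gene, not normalized and not always whole) and FPKM values, which correct for gene length and sequencing depth. The submitters' processing notes name BWA, Bowtie2 and GRCh38.p12, and the roles of the aligners are not given in the sources used here. The authors' table of the comparison holds mean FPKM, a log2 ratio and a probability per gene, and the last 2 were not used. In U87MG-LMO2 replicate 3, 3 lines were unreadable and 131 genes differed from the authors' mean by over 0.006 FPKM. These were left out (27128 genes kept, 1 of the wider list and 0 members lost). A gene without a line in a library was taken as 0 there.

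Counts were rounded, filtered with filterByExpr, scaled by TMM and tested with edgeR 4.0.16 (glmQLFit and glmQLFTest, R 4.3.3, 3 against 3 libraries, Benjamini-Hochberg over 16092 genes), and the scripts were tested on simulated data. Alternatives used DESeq2 1.42.0, limma 3.58.1 with a pseudocount of 1 or 0.1, other filters, a GC correction and libraries left out. Named genes were LMO2, the members, the Dishevelled genes, CTNNB1, GSK3B and up to 6 called genes of the wider list in each direction. TLE4, WNT7B, KREMEN1, WLS, FZD2 and the target genes, added for their roles, were named after their values were seen. The members and lists were chosen with earlier results of these data known. Promoters are from RefSeq (GRCh38.p14). Intervals and limits on counts cover only the error the libraries show.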

Additional observations from a re-analysis of the deposited data

How the results depend on the processing

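WNT5B, FZD7, PORCN and FZD1 passed the threshold under every alternative. NOTUM passed it under the 13 that gave it a value, but was not tested with at least 10 counts in every library. It passed the main filter on low counts only through U87MG-LMO2. Of the 8 tested members, 4 were called, against 2 and 2 with limma at pseudocounts of 1 and 0.1 (WNT5A and TCF7 lost), and 2 to 4 with 1 library left out. Genes of the wider list called higher numbered 11, against 7 and 7 with limma and 6 to 13 with 1 library left out. Those called lower numbered 1, against 0 and 0 with limma, 0 with the replicate block, 3 with GC correction (TLE2, RNF43 and AXIN1) and 0 to 4 with 1 library left out, 4 without U87MG-LMO2 replicate 3 (TLE2, RNF43, BTRC and DVL2). Over all genes the calls fell from 760 higher and 443 lower to 102 and 42 without U87MG-control replicate 3 and rose to 1307 and 1102 without U87MG-LMO2 replicate 3. With limma they were 267 and 166 at a pseudocount of 1 and 283 and 188 at 0.1, of 20246 genes. GC correction gave 503 higher and 410 lower, and DESeq2 gave 1006 and 691, of 16092 genes. With at least 10 counts in every library, 718 were higher and 431 lower of 14752 genes.

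Same-numbered libraries did not deviate together over all genes (correlations -0.12, 0 and -0.04). The labels do not say what the numbers mean, and such correlations cannot exclude a shared culture or batch. With the replicate block 3 members were called (TCF7 lost, adjusted p = 0.0656), 8 genes of the list higher and 0 lower, and 387 genes higher and 189 lower of all tested.

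Some uncalled values changed sign. AXIN2 ranged from -0.20 to 0.22 with 1 library left out and NKD1 from -0.70 to 0.15. DVL1 was -0.18 with GC correction and, with 1 library left out, from -0.0124 to 0.22. GSK3B was -0.0110 and -0.0121 with limma and -0.10 to 0.12 with 1 library left out, and CTNNB1 was -0.0398 to 0.24, both lowest without U87MG-LMO2 replicate 3. The cause of none of these was tested. Over the tested members, the Dishevelled genes, CTNNB1, GSK3B and the called genes of the wider list, 236 values kept direction and side of the threshold, 43 lost it, 1 gained it and 10 changed sign. Outside these, RNF43 gained a call under 3 alternatives and FZD2 under 1. LGR4 was called higher with GC correction (edgeR adjusted p = 0.0454) and without U87MG-LMO2 replicate 3 (0.0108). TNFRSF19 was called higher without that library (edgeR adjusted p = 0.04999). AXIN1 gained a call with GC correction and BTRC without U87MG-LMO2 replicate 3. SOST gained one without that library and with no filter on low counts. DESeq2 gave SFRP4 and NKD1 no adjusted p. With at least 10 counts in every library, NOTUM, SFRP4 and TLE2 were not tested, and the 1 gene called lower was RNF43. Low counts limit DKK3, NKD1, SFRP4 and TLE2.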

Other observations

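Of the wider list, 19 genes had readable counts but too few for the test. SOST, a secreted inhibitor that binds the LRP co-receptors and is best known from bone, had 0, 2 and 1 counts in U87MG-control and 16, 24 and 6 in U87MG-LMO2. Against a floor of 3 counts in each control library its mean CPM was at least 4.21-fold higher. With no filter on low counts, SOST was called by edgeR (log2 fold change 3.52, adjusted p = 0.0160). Low ligand counts included WNT16, with 0 to 5 in U87MG-control and 5 to 12 in U87MG-LMO2, WNT6, with 1 to 6 and 7 to 14, and WNT4, with 3 to 6 and 7.95 to 10.84. These counts are not scaled to depth, and every U87MG-LMO2 library was deeper. In CPM, WNT16 overlapped (0.378 in U87MG-control replicate 3, 0.305 in U87MG-LMO2 replicate 1). Counts of WNT2B (2 to 14 and 6 to 14), WNT11 (1 to 2 and 0 to 4), WNT8B (0 to 1 and 0 to 2) and WNT9A (0 and 0 to 2) overlapped. Among the other untested genes, LGR5, the R-spondin receptor of intestinal stem cells, had at most 2 counts in U87MG-control and 4 in U87MG-LMO2. These genes were chosen after their values were seen.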
